A study of Mus musculus with 20 samples.

Results

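Medullary thymic epithelial cells (mTEC) of the mouse thymus were compared between a genotype labelled Trp53-cHyper and wild type (Trp53-WT) within the sorted subset labelled mTEChi. The comparison takes in 10 of the 20 samples of the series: 2 sequencing runs each of replicates 1 and 2 and 1 run of replicate 3 in either genotype. In the deposited table these make 3 WT and 3 cHyper libraries. Thymi came from mice of 4 to 5 weeks, stromal cells positive for EpCAM were selected with magnetic beads, and each sample holds 75000 sorted mTEC. The allele behind the label cHyper, what drives it, whether mice were pooled and the gate of mTEChi are not stated in the sources used here. The title of the series names repression of p53, noise in chromatin accessibility and immune tolerance. The comparison asks which genes differ in level between the genotypes, and how many genes are detected at all, in the mTEC subset that displays the widest range of self-antigens.

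mTEC transcribe very many genes that are otherwise confined to single tissues and present the products to developing T cells, which removes or diverts self-reactive clones. Much of this transcription depends on Aire, a chromatin-associated regulator made by mature mTEC, and part of it on the transcription factor Fezf2. Trp53 encodes p53, a transcription factor that is activated by DNA damage and other stress. It induces genes of cell-cycle arrest (Cdkn1a), apoptosis (Bax, Apaf1) and DNA repair, and its own inhibitor Mdm2.

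The 6 libraries held 23.48 to 43.09 M fragments (M stands for 1000000), 42.08 M or more in replicates 1 and 2 and 25.18 M or fewer in replicate 3. Replicate 3 of both genotypes also differed from replicates 1 and 2 in sex-linked genes. The Y-linked gene Ddx3y had 0 fragments in replicate 3 and 3041 to 3755 in replicates 1 and 2. Xist, the RNA of the inactive X chromosome, had 1424.098 (WT) and 1049.228 (cHyper) fragments per 1000000 in replicate 3. In replicates 1 and 2 it had 4.132 to 5.49. This is a female pattern in replicate 3 and a male pattern in replicates 1 and 2. Depth, sex and the run scheme thus changed together with the replicate number. On the first principal component of the 6 libraries (36.9% of the variance) cHyper replicate 3 stood apart at -72.9, beyond the other cHyper libraries at -11.4 and -16.9 and the WT libraries at 27.6 to 41.3. No label ties a replicate to an animal of its own, and the p-values below therefore rest on library-to-library spread alone. Between replicate 3 and the others this spread takes in the difference in sex. Between replicates 1 and 2 it may be technical. In RNA of a sorted population, fewer cells of a type and less RNA per cell cannot be told apart.

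The label mTEChi held against its markers. Levels are given in CPM, fragments per 1000000 of the library total after edgeR's TMM scaling. Aire stood at 1920 CPM in each of the 3 WT libraries and at 1770, 1880 and 1280 CPM in cHyper replicates 1, 2 and 3. All cHyper values lay below WT, cHyper replicate 3 farthest, and the difference did not pass the test (log2 -0.22, SE 0.16, edgeR adjusted p = 0.548). Fezf2 had 468 ± 57.1 CPM in WT and 445 ± 33.4 in cHyper (SD, n = 3 libraries each; adjusted p = 0.853), with overlapping groups. Of 18 genes of mature mTEC and MHC class II, none passed the test in either direction, with a median log2 of -0.07. None of the 8 general epithelial genes (Epcam, Krt8 and others) passed it either, at a median of 0.05. The share that passed among all tested genes was 1.98%, so few or no calls would be due in these lists.

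A small share of genes differed by genotype, and rises outnumbered falls in edgeR's fit to all 12 libraries, though not under every other model. Of 28932 genes tested, 572 (1.98%) had an adjusted p under 0.05 in edgeR's quasi-likelihood test, 451 higher in cHyper (1.56%) and 121 lower (0.418%). At least 2-fold changes were 93 rises and 35 falls. The median log2 change of all tested genes was -0.004. The groups of 3 did not overlap for 7449 of 28931 genes (25.7%). Of the calls, 78.8% were rises. That share was 66.0% with DESeq2 size factors and 64.5% with library totals, which shifted the median of all genes to -0.06 and -0.071. DESeq2's Wald test called 707 higher and 712 lower genes, and edgeR on the 6 mTEChi libraries alone 587 and 539. With the replicate number as a block the count was 1250, 941 higher and 309 lower. Without any 1 library it was 296 to 333, and 208 genes (175 higher, 33 lower) were called in the full fit and in all 6 such fits.

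**Figure D1:**
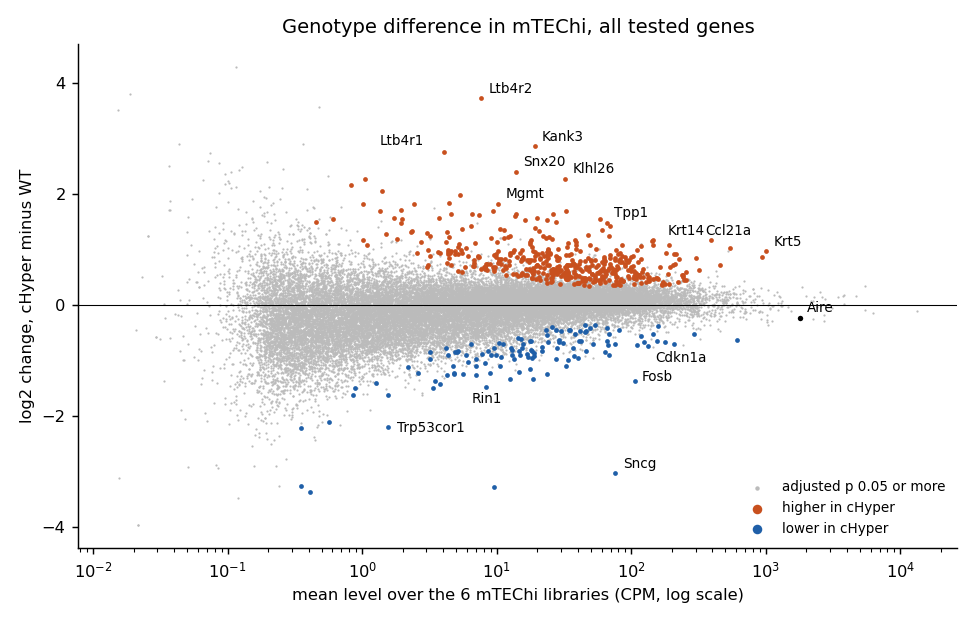
Log2 change between cHyper and WT in mTEChi (vertical) against the mean level over the 6 libraries in CPM (horizontal, log scale), 1 point per tested gene. Orange and blue points are the 451 higher and 121 lower genes; Aire, in black, did not pass the test.

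Trp53 itself was higher in cHyper. It stood at 97.9, 99.4 and 107 CPM in WT and at 135, 129 and 138 in cHyper replicates 1 to 3, without overlap (log2 0.41, SE 0.083, edgeR adjusted p = 0.02). The call was lost without WT replicate 1, WT replicate 2, cHyper replicate 1 or cHyper replicate 3 (adjusted p 0.0895 to 0.14). The sources used here do not say whether the allele changes which fragments count toward the gene.

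Genes of the p53 circuit moved in both directions. Cdkn1a, the gene of p21 (an inhibitor of cyclin-dependent kinases) and a classical p53 target, had 162, 182 and 152 CPM in WT and 110, 92.5 and 96.3 in cHyper. All 3 cHyper libraries lay below all WT libraries, a fall by 0.73 on the log2 scale (SE 0.12, edgeR adjusted p = 0.00418) that was called in every alternative run. Mdm2, the ubiquitin ligase that degrades p53, had 139, 130 and 122 CPM in WT and 115, 107 and 107 in cHyper, again without overlap, and did not pass the test (log2 -0.25, adjusted p = 0.192). Mdm4, the related p53 inhibitor, named after its values were seen, had 224, 231 and 206 CPM in WT and 142, 141 and 131 in cHyper (log2 -0.67, SE 0.094, edgeR adjusted p = 0.00139). Trp53cor1, the non-coding RNA known as lincRNA-p21, lies 11796 bases from Cdkn1a on chromosome 17, on the other strand. It had 2.55, 3.31 and 1.8 CPM in WT and 0.658, 0.668 and 0.288 in cHyper, 4.58-fold lower (edgeR adjusted p = 0.00562).

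Among 41 listed p53 target genes 12 rose, Cdkn1a alone fell, and 28 did not pass the test. The list's median log2 was 0.27 against -0.004 over all tested genes, and 31.7% of its members were called against 1.98% of all genes. With the replicate block 17 rose and 2, Cdkn1a and Bbc3, fell, beside 941 higher and 309 lower of all 28932 tested genes. DNA repair genes were among the rises. Mgmt, which removes methyl groups from guanine in DNA, had 3.99, 4.24 and 5.37 CPM in WT and 13.6, 18.7 and 15.8 in cHyper (3.56-fold higher, edgeR adjusted p = 5.3e-05). Ercc5, a nuclease of nucleotide excision repair, went from 16.3 ± 1.54 to 27.6 ± 2.01 CPM, and Polk, a translesion DNA polymerase, from 20.4 ± 2.54 to 31.0 ± 2.25 (adjusted p = 0.00182 and 0.0131, edgeR). Zfp365, a zinc finger protein, went from 7.41 ± 1.63 to 17.7 ± 1.41 CPM.

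Apoptosis genes of the list were split between rises and genes that did not pass. Apaf1, the scaffold of the apoptosome, had 53.3, 55.1 and 46.1 CPM in WT and 90.9, 86.8 and 80.7 in cHyper (1.67-fold, edgeR adjusted p = 0.00137). Bax, which permeabilizes the outer mitochondrial membrane, had 63.5, 65.9 and 40.4 CPM in WT and 110, 129 and 85.6 in cHyper (1.91-fold, edgeR adjusted p = 0.0278). Perp, a membrane protein of desmosomes and a p53 target in epithelia, went from 154 ± 25.3 to 254 ± 17.6 CPM (edgeR adjusted p = 0.00589). Gtse1, a protein of the G2 and S phases that binds p53, went from 17.2 ± 0.618 to 32.8 ± 1.57 CPM (adjusted p = 0.0255, edgeR). The other rises were Sulf2, described below, Ei24, Dram1 and Triap1, at log2 0.37 to 1.43. In none of the 12 genes that rose did the groups overlap, as was so for 25.7% of all genes with a fragment in mTEChi. The 12 genes were picked by the test on the same libraries, which itself favours groups without overlap. Bbc3, which encodes the apoptosis inducer Puma, had 25.5, 25.9 and 25.9 CPM in WT and 17.7, 19 and 14.7 in cHyper, lower without overlap, and did not pass (log2 -0.59, adjusted p = 0.0581; 0.037 with the replicate block). Pmaip1, Fas, Tnfrsf10b, Pidd1 and Aen, also of the apoptosis pathway, did not pass either, at log2 -0.21 to 0.38; of these Aen passed with the replicate block.

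Of the 12 calls 6, those of Mgmt, Zfp365, Sulf2, Apaf1, Ercc5 and Perp, held whichever single library was left out. That of Bax was lost when any library other than cHyper replicate 3 was left out (adjusted p 0.055 to 0.139), and those of Gtse1 (0.0759 to 0.123), Ei24 (0.0924 to 0.19) and Triap1 (0.0956 to 0.235) when any 1 of the 6 was left out. Polk lost it without WT replicate 2 or 3 or cHyper replicate 1 or 3 (0.0527 to 0.0892), and Dram1 without replicate 2 or 3 of either genotype (0.0502 to 0.0573). Ei24 (0.0691 to 0.0864) and Triap1 (0.0609 to 0.0754) were also not called with library totals, DESeq2 size factors, no filter or a filter of 1 CPM in 3 libraries, and Ei24 with the 6 mTEChi libraries alone in the fit (0.058).

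Zmat3 and Eda2r, targets of p53 that encode an RNA-binding protein and a receptor of the tumour necrosis factor family, did not pass the test in mTEChi. Zmat3 had 79.3 ± 6.5 CPM in WT and 102 ± 3.05 in cHyper (log2 0.37, adjusted p = 0.0557; 0.0138 with the replicate block). Eda2r had 9.78, 8.52 and 6.09 CPM in WT and 8.31, 7.54 and 7.65 in cHyper, with overlapping groups (log2 -0.06, SE 0.17, adjusted p = 0.904).

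In promoter windows of 4 picked genes, p53-type sequence lay around the start of genes that rose and of genes that fell. The 4 genes were picked with results of these data known, so their matches test nothing. Where a gene had several annotated starts, the window with the best-matching pair of half-sites was taken. Each window runs from 250 bases before to 50 bases after an annotated start, 5′ to 3′ on the gene's strand (RefSeq, GRCm38.p6, the assembly of mm10). Capitals mark exact 10-base matches to the p53 half-site, a pattern that is its own reverse complement and so covers both strands. They also mark the best-matching pair of half-sites in a window, with at most 1 mismatch and at most 13 bases between its members. Further pairs within these limits, as in the Cdkn1a and Gtse1 windows, are capitalized only in part. Cdkn1a, which fell, lies at chr17:29090729-29091028 on the plus strand; Bax, which rose, at chr7:45466849-45467148 on the minus strand; Gtse1, which rose, at chr15:85859696-85859995 on the plus strand; and Sncg, which fell the most among named genes, at chr14:34374620-34374919 on the minus strand.
Cdkn1a: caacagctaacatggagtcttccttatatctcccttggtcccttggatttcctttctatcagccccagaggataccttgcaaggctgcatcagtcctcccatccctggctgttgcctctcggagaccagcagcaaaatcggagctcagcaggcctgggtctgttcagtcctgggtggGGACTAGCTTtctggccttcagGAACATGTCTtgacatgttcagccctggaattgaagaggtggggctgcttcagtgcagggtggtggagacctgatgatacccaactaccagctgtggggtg
Bax: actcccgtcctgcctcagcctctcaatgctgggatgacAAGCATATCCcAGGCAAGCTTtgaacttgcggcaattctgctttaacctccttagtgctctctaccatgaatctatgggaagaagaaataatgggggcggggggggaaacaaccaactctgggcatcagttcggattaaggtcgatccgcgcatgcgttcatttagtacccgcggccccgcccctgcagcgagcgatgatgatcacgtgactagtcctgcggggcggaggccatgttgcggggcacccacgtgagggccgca
Gtse1: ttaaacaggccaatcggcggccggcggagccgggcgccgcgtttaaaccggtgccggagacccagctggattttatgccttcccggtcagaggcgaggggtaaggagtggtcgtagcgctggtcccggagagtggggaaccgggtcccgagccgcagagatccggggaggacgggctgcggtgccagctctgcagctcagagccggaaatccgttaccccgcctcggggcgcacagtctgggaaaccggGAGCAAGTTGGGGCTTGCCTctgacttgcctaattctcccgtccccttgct
Sncg: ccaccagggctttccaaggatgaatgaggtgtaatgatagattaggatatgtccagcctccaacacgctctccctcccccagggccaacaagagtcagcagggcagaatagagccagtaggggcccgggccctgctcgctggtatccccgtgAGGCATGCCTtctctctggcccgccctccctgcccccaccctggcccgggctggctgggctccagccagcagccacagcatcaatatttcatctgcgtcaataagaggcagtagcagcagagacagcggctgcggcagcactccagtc
The marked Cdkn1a pair matches at 20 of 20 bases with 12 bases between its members. The marked pairs of Bax (1 base between) and Gtse1 (0 between) match at 19 of 20, and Sncg has a single half-site. The Gtse1 pair begins 1 base before the annotated start and runs into the gene. Of 27025 genes with a window, 9.6% hold at least 1 half-site and 1.24% a pair. Half-sites lay in the windows of 9.0% of the tested genes with a window, 14.8% of 331 higher genes and 13.1% of 84 lower genes. Pairs lay in the windows of 1.17%, 2.72% (9 genes) and 3.57% (3 genes). These matches are descriptions of sequence; binding was not measured.

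The largest rises named by the rule (a mean of at least 1 CPM, no overlap) included both leukotriene B4 receptors. Ltb4r2 had 1.19, 1.19 and 0.757 CPM in WT and 12.7, 14.9 and 15.2 in cHyper, 13.3-fold higher (edgeR adjusted p = 1.5e-07). Ltb4r1 had 1.04, 0.974 and 1.12 CPM in WT and 6.47, 6.08 and 8.76 in cHyper, 6.78-fold higher (edgeR adjusted p = 5.1e-06). The spans of both genes lie 823 bases apart on the same strand of chromosome 14. Kank3, a member of a family of cytoskeletal adaptors, had 4.43, 4.09 and 5.48 CPM in WT and 34.3, 37 and 29.8 in cHyper, 7.27-fold higher (edgeR adjusted p = 4.82e-07).

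Klhl26, a Kelch-like protein, had the smallest p of all tested genes. It stood at 11.2, 11.2 and 10.8 CPM in WT and at 52.4, 55.5 and 52.9 in cHyper, 4.85-fold higher (edgeR adjusted p = 1.71e-08). Snx20, a sorting nexin, went from 4.38 ± 0.951 to 23.2 ± 3.75 CPM. Sgce, the dystroglycan-associated epsilon-sarcoglycan, went from 0.503 ± 0.284 to 2.29 ± 0.58 CPM, and Hmgcll1, a relative of the ketogenic enzyme HMG-CoA lyase, from 2.11 ± 0.479 to 8.46 ± 0.669. Ppp1r36 and Rai2 were 3.53-fold and 3.28-fold higher; without WT replicate 1, WT replicate 2 or cHyper replicate 2, Ppp1r36 was not called (adjusted p 0.136 to 0.147; 0.0811 on counts thinned to the smallest library), nor was Rai2 without WT replicate 1, WT replicate 2 or cHyper replicate 3 (0.0518 to 0.0812).

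The 6 largest rises among abundant genes (a mean of at least 50 CPM) were of 2.26-fold to 2.92-fold. Tpp1, a lysosomal peptidase, had 32.2, 35.4 and 35.9 CPM in WT and 98.4, 93.2 and 99.2 in cHyper (edgeR adjusted p = 4.93e-07). Sulf2, an extracellular enzyme that trims heparan sulfate, had 37.5, 36.6 and 39.5 CPM in WT and 113, 103 and 89.8 in cHyper. Ctc1, a subunit of the telomere-binding CST complex, went from 33.9 ± 3.2 to 86.7 ± 4.92 CPM. Both Rgs14 and Rgs12 are regulators of G-protein signalling; Rgs14 went from 29.7 ± 3.21 to 86.7 ± 8.22 CPM and Rgs12 from 40.2 ± 3.39 to 95.9 ± 6.75. Bpifa1, a secreted protein of airway epithelium, had 93.5, 96 and 74.9 CPM in WT and 195, 190 and 213 in cHyper. These 6 calls held whichever single library was left out; with both replicate 3 libraries left out, Bpifa1 had an adjusted p of 0.148.

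Sncg, which encodes gamma-synuclein, was the largest fall named by the rule. It had 135, 147 and 126 CPM in WT and 15.6, 19.8 and 14.2 in cHyper, 8.19-fold lower (edgeR adjusted p = 4.93e-07). Rin1, an effector of Ras and Rab5, had 13.2, 12.9 and 10.3 CPM in WT and 4.01, 5.26 and 3.86 in cHyper (2.77-fold lower). Slc8a2, a sodium-calcium exchanger, fell from 26.8 ± 2.42 to 10.7 ± 0.355 CPM, Anxa8, an annexin, from 18 ± 2.48 to 7.23 ± 1.56 and Mansc4 from 5.52 ± 1.74 to 2.1 ± 0.328.

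Adam23, Adam11 and Adam19 were among the 6 largest falls at 50 CPM or more. Adam23 had 94.3, 85.9 and 85.2 CPM in WT and 49.6, 56.8 and 36.1 in cHyper, Adam11 86.3, 73.6 and 85.6 against 45.8, 51.7 and 39.1, and Adam19 125, 147 and 142 against 69.5, 97.8 and 84.2. The first 2 encode adhesion proteins without protease activity and Adam19 a membrane metalloprotease. Their folds were 1.86, 1.79 and 1.65 lower, and Adam23 was not called without cHyper replicate 3 (adjusted p = 0.0561). Less abundant falls were those of Ifi213, an interferon-inducible gene, from 1.85 ± 0.416 to 0.691 ± 0.26 CPM, Fendrr, a non-coding RNA, from 4.98 ± 1.1 to 1.91 ± 0.197, and Lrrc26, a potassium channel subunit, from 6.03 ± 0.792 to 2.5 ± 0.359. Ifi213 was not called without WT replicate 1 or 2 or cHyper replicate 1 or 3 (adjusted p 0.0858 to 0.109). Fendrr (0.0747 to 0.195) and Lrrc26 (0.0695 to 0.156) lost their calls without each of the 6 libraries in turn, and Fendrr on thinned counts (0.0916).

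Of 10 listed genes of immature and basal mTEC 4 rose in cHyper, 1 fell and 5 did not pass the test, with a median log2 of 0.50. The called share was 50%, against 1.98% of all tested genes. A log2 above 0 was found in 9 of 10, against 49.6% of all tested genes. That background depends on level, as 28.2% of genes at 30 to 100 CPM and 30.6% of those over 100 had a log2 below 0. Krt14, a keratin of basal epithelium, had 243, 258 and 222 CPM in WT and 479, 576 and 574 in cHyper (2.25-fold, edgeR adjusted p = 0.000215). Its partner keratin Krt5 had 692, 780 and 567 CPM in WT and 1080, 1240 and 1690 in cHyper (1.96-fold, adjusted p = 0.0101, edgeR). Ccl21a, a chemokine that draws thymocytes into the medulla, had 342, 399 and 328 CPM in WT and 517, 667 and 1010 in cHyper (2.06-fold, edgeR adjusted p = 0.0124). Groups did not overlap, and cHyper replicate 3 was the highest for Krt5 and Ccl21a and the lowest for Aire.

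Itgb4, an integrin subunit that anchors basal cells, went from 205 ± 17.7 to 309 ± 18.9 CPM (edgeR adjusted p = 0.0081). Krt15, another basal keratin, went the other way, from 34, 29.9 and 34.9 CPM in WT to 13.2, 14.2 and 14.3 in cHyper (2.36-fold lower, edgeR adjusted p = 0.00405). Without WT replicate 1 or 3, Krt5 (adjusted p = 0.0542 and 0.0502) and Ccl21a (0.0772 and 0.0589) were not called, nor was Itgb4 without WT replicate 1 or cHyper replicate 2 (0.058 and 0.0525). The summed level of the list was 3030 to 3640 CPM in WT and 4350 to 5970 in cHyper, while that of the 18 mature mTEC genes overlapped, at 30500 to 40700 and 31200 to 33300. The part of a different mix of mTEC stages in this result was not tested.

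Markers of mTEC that resemble other tissues mostly did not pass the test. With 1.98% of all tested genes called, few or no calls would be due in such short lists. None of the 17 keratinocyte-like, 14 neuroendocrine, 10 microfold, 13 enterocyte-hepatocyte, 11 ciliated, 8 ionocyte or 15 muscle genes passed. The lowest medians among these were those of the enterocyte-hepatocyte list (-0.42, 12 of its 13 genes at or below 0) and the ionocyte list (-0.34). Hnf4a, a transcription factor of gut and liver, had 12.4, 12.3 and 18.1 CPM in WT and 8.56, 6.73 and 7.56 in cHyper, without overlap (log2 -0.90, adjusted p = 0.0872; 0.0473 with the replicate block). Pou2f3, the master regulator of tuft cells, was the single call among 18 tuft genes, at 22.1 ± 3.19 CPM in WT and 34.8 ± 5.67 in cHyper (edgeR adjusted p = 0.0218); it was lost without WT replicate 2 or 3 or cHyper replicate 1 (0.104 to 0.146). Beside Bpifa1, 9 of 10 secretory genes did not pass.

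Tissue-restricted antigens pointed down in the median with 1 call. Of 12 tested Aire-dependent antigens none passed (median -0.21). Csn2, a milk casein, had 746, 805 and 776 CPM in WT and 720, 737 and 498 in cHyper (log2 -0.25, SE 0.25, adjusted p = 0.685). Of 9 Fezf2-dependent antigens Sult1c2, a sulfotransferase, fell, from 24.5, 25.2 and 23.8 CPM in WT to 13.7, 12.4 and 14.5 in cHyper (1.81-fold lower, edgeR adjusted p = 0.0305), a call lost when any 1 of the 6 libraries was left out (0.088 to 0.152); the list's median was -0.32. Of 22 tested liver and pancreas antigens none passed (median -0.38), with Apob at 139 ± 12.3 CPM in WT and 93.3 ± 17.3 in cHyper and Ahsg at 1.84 ± 0.0646 and 1.11 ± 0.284. None of 19 proteins that work with Aire passed (median 0.07). Marker lists of other thymic cells, given below, also had medians below 0 (myeloid -0.40, endothelial -0.52, erythroid -0.26 and fibroblast -0.23). Among all tested genes, of which 1.98% were called, the median was -0.28 at a mean of 0.1 to 0.3 CPM and -0.27 at 0.3 to 1. It was -0.17 at 1 to 3 CPM, -0.04 at 3 to 10 and 0.06 at 10 to 30. Tested genes with 0 fragments in mTEClo, the sorted subset taken up below, had a median of -0.55. The part of other cells, of level and of silence in mTEClo in the antigen medians was not tested.

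Immediate-early genes fell in 3 of 20 members (5 with the replicate block), with a list median of -0.22. The 3 calls are 15% of the list, against 1.98% of all tested genes. The replicate block called 309 of all 28932 tested genes lower. Fosb, a component of the AP-1 transcription factor, had 146, 181 and 131 CPM in WT and 46, 65.8 and 65.9 in cHyper (2.58-fold lower, edgeR adjusted p = 0.000468). Dusp1, a phosphatase of MAP kinases, fell from 80.3 ± 6.73 to 51.1 ± 4.36 CPM and Egr1, a zinc finger factor, from 256 ± 48.7 to 159 ± 27.4 (adjusted p = 0.0167 and 0.0496, edgeR). Dusp1 was not called without WT replicate 1 or cHyper replicate 1 or 2 (0.0529 to 0.0884), nor was Egr1 when any library other than WT replicate 3 was left out (0.0502 to 0.169). Fos overlapped between the groups, with 195, 222 and 131 CPM in WT and 81.2, 113 and 131 in cHyper (adjusted p = 0.0699; 0.037 with the replicate block).

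Among 23 interferon-stimulated genes Mx1, an antiviral GTPase, fell and 22 did not pass (median -0.20). This is 4.35% of the list, against 1.98% of all tested genes. Mx1 had 49.1, 48.9 and 40.4 CPM in WT and 26.1, 29.3 and 25.8 in cHyper (1.71-fold lower, edgeR adjusted p = 0.0255). Leaving out any library other than WT replicate 3 lost the call (0.0639 to 0.113). Irf7, a regulator of type I interferon genes, had 62.7 ± 8.69 CPM in WT and 41.5 ± 4.39 in cHyper, and Rsad2, which encodes viperin, 40.5 ± 2.93 and 24.5 ± 2.75. Neither passed (edgeR adjusted p = 0.0553 and 0.0529). With the replicate block both did (edgeR adjusted p = 0.00738 and 0.0173). Then 5 members of the list fell, beside 309 of all 28932 tested genes.

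No member passed among 35 cell cycle genes (median 0.18), 18 genes of the NF-kB pathway (0.04), which drives mTEC maturation, or 20 subunits of the BAF and NuRD chromatin remodelers (0.13). At the 1.98% called among all tested genes, few or no calls would be due in lists of this length. With the replicate block 2 cell cycle genes, Mcm3 and Mcm7, and 1 remodeler subunit, Mta2, rose, beside 941 of all 28932 tested genes. Of 11 thymic chemokines Ccl21a alone rose; with the block Ccl22 rose and Cxcl9 fell as well. Ccl22, a ligand of the receptor CCR4, had 272, 419 and 364 CPM in WT and 654, 712 and 723 in cHyper, without overlap (log2 0.99, SE 0.34, adjusted p = 0.185; 0.0171 with the replicate block). Of 10 cortical epithelial genes Ctsl, the protease cathepsin L, rose from 158 ± 26.8 to 264 ± 39.6 CPM (edgeR adjusted p = 0.0283), a call lost without WT replicate 1 or 3 or cHyper replicate 2 or 3 (0.11 to 0.133).

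Markers of other thymic cells were detected in all libraries, none at 0. The summed level of 15 thymocyte genes was 201 to 245 CPM in WT and 200 to 225 in cHyper, and that of 5 B cell genes 67.4 to 69.7 and 59.8 to 74.6. Sums over 14 myeloid and dendritic genes were 536 to 717 CPM and 523 to 584, and over 8 fibroblast genes 170 to 265 and 162 to 170. Sums of 5 endothelial genes (25.1 to 30.5 and 19.6 to 21 CPM) and 5 erythroid genes (52.5 to 71.5 and 49.3 to 51.3) were lower in cHyper without overlap. Groups did not overlap for 25.7% of single genes. None of the 14 myeloid, 5 endothelial or 5 erythroid genes had a log2 above 0, and 1 of the 8 fibroblast genes did. Of all tested genes 49.6% had a log2 above 0. The share below 0 was 65.8% at 1 to 3 CPM, 55.0% at 3 to 10 and 39.7% at 10 to 30. With 1.98% of all tested genes called, few or no calls would be due in these lists. Adgre1, the macrophage marker F4/80, was the single call, at 23.6 ± 2.06 and 13.2 ± 3.41 CPM (edgeR adjusted p = 0.0332; 0.076 to 0.149 when any library other than cHyper replicate 2 was left out).

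**Figure D2:**
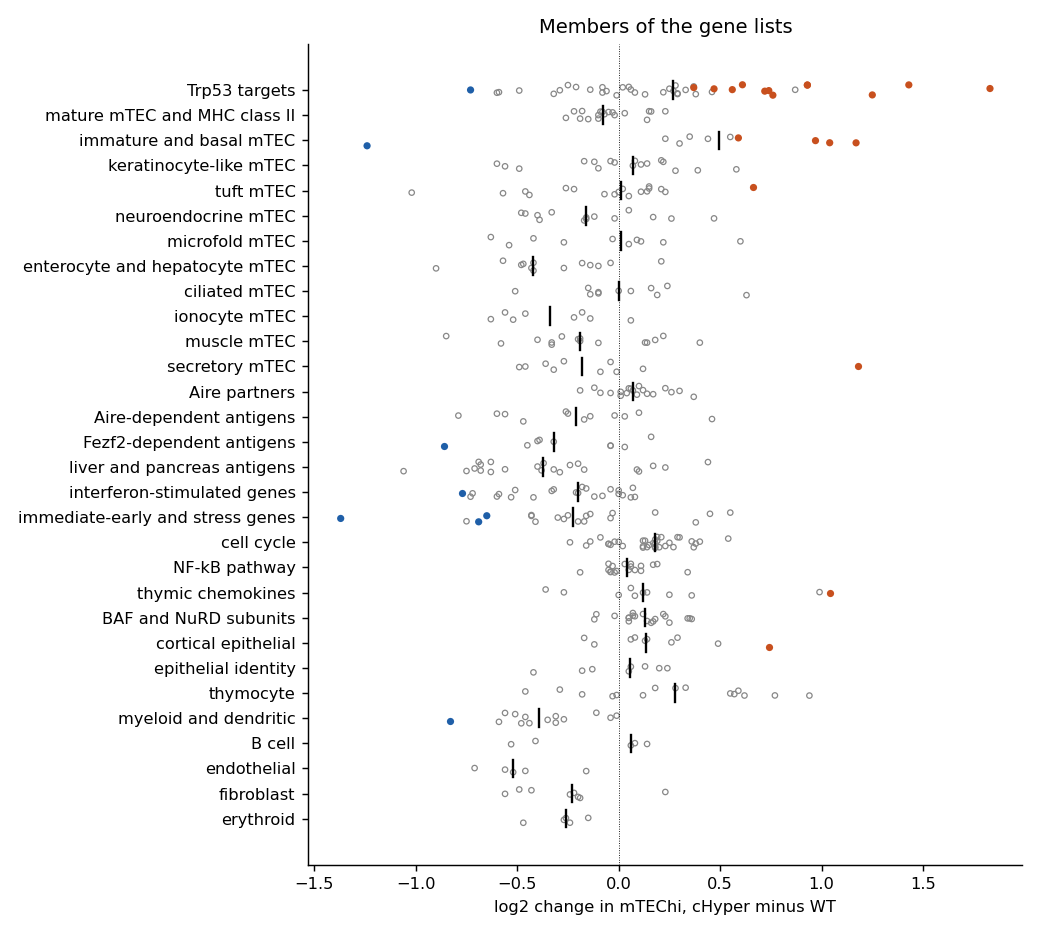
Log2 change in mTEChi (horizontal) of the members of 30 gene lists, 1 point per gene; filled orange and blue points passed the test upward and downward, open points did not, and black bars are list medians. The p53 targets hold 12 filled points above 0 and Cdkn1a below it, and the enterocyte and hepatocyte list has its bar at -0.42.

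Fewer genes were detected in cHyper at equal depth. Each library was thinned by calculation to the smallest total, 23.48 M fragments, and the expected number of genes with at least 1 fragment was taken. The numbers were 37565, 37206 and 36375 in WT and 36139, 36156 and 33866 in cHyper replicates 1 to 3. No cHyper library reached the lowest WT library, and cHyper replicate 3 was far below the rest. The means were 37049 ± 611 and 35387 ± 1317 genes, a difference of -1662 (-4.49%; exact two-sided permutation test, p = 0.1, the smallest that 3 against 3 libraries can give).

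Same-numbered libraries differed by -3.8%, -2.82% and -6.9%. Without cHyper replicate 3, which also had the lowest Aire and the highest Krt5, the difference was -901 genes (-2.43%, exact permutation p = 0.2). With at least 10 fragments required it was -3.92% and at 10 M fragments -4.46%. Without predicted genes, clones, pseudogenes and receptor segments, it was -210 genes (-1.08%), so most of the difference in number lay in those gene models. Protein-coding genes had little room to differ, with 96.4% detected in WT and 95.4% in cHyper. At the full totals the groups overlapped. The endothelial and erythroid marker sums given above were also lower in cHyper, and the myeloid list had a median of -0.40; their part in the number of detected genes was not tested.

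The difference lay in genes with few or no fragments in mTEClo, the sorted mTEC subset with little Aire. Of 15521 genes with 0 fragments in all 6 mTEClo libraries, 4882, 4596 and 4133 were detected in WT mTEChi and 3978, 3829 and 2818 in cHyper, a mean difference of -21.94%. The difference was -9.57% for genes with 1 to 10 mTEClo fragments, -2.49% (overlapping) for 11 to 100 and 0.02% above 100. Above 100 fragments 99.8% of genes were detected in both genotypes, and for 11 to 100 it was 90.6% in WT and 88.4% in cHyper. The number detected therefore had little room to differ in these classes. Among protein-coding genes with 0 mTEClo fragments, 1086, 1072 and 1023 were detected in WT and 968.3, 939.5 and 816 in cHyper (-14.36%). Vomeronasal receptor genes, which encode pheromone receptors of the nose, counted 230.7, 210.9 and 208 in WT and 175, 188.4 and 137 in cHyper of 350 (-22.96%). Each of these group differences without overlap had an exact permutation p of 0.1.

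**Figure D3:**
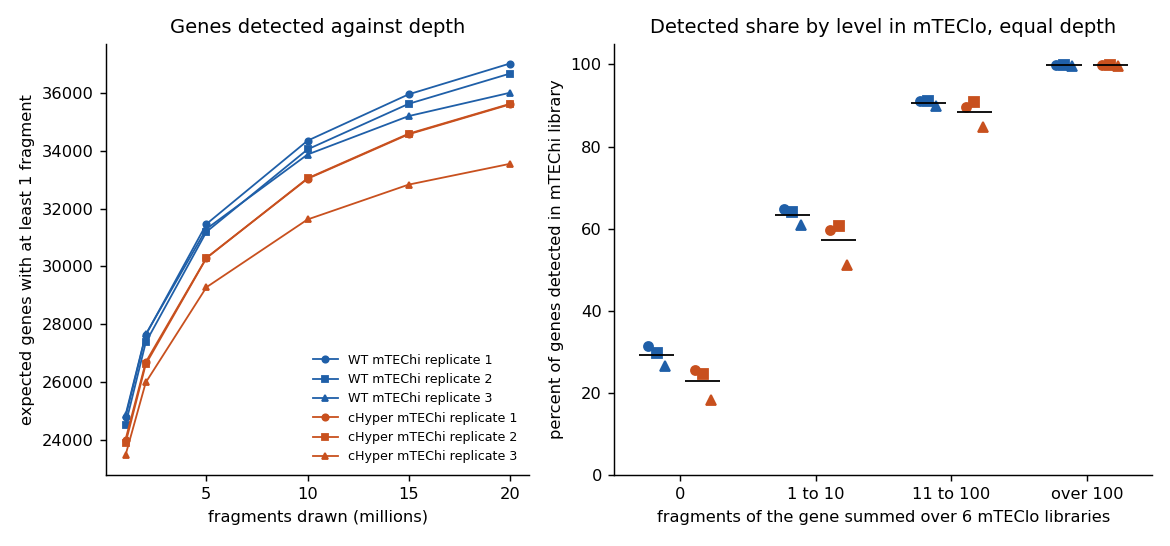
Left, expected genes with at least 1 fragment (vertical) against fragments drawn (in M) (horizontal) for the 3 WT (blue) and 3 cHyper (orange) mTEChi libraries; the curves of cHyper replicates 1 and 2 coincide below WT, and replicate 3 is lowest. Right, percent of genes detected at equal depth by the genes' fragments in mTEClo, with bars at group means: 29.2% against 22.8% for genes with 0 and 99.8% in both for genes above 100.

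Levels moved with detection. Genes with 0 mTEClo fragments summed to 1048.6, 989.18 and 1135.7 CPM in WT and to 774.57, 721.39 and 617.16 in cHyper, a difference of -33.4% in the mean and of -29.3% without cHyper replicate 3 (exact permutation p = 0.1 both times). The sums differed by -27.2% for genes with 1 to 10 fragments and by -18.4% for 11 to 100. By mean level over the 6 libraries, 61.6% of genes under 0.1 CPM were lower in cHyper, 69.4% from 0.1 to 1 CPM, 60% from 1 to 10, 34.2% from 10 to 100 and 30.5% above 100. With library totals in place of TMM these shares were 63.2%, 72.8%, 68.2%, 48.3% and 44.9%, so the larger share of rises among abundant genes depended on the scaling.

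In expectation, 221 genes were present in all 3 WT and no cHyper library at equal depth, and 53 in all 3 cHyper and no WT library; 29799 were in all 6. The 100 most abundant genes of a library took 16.67 ± 1.24% of its fragments in WT and 16.22 ± 0.468% in cHyper (exact permutation p = 0.8), and Shannon diversity was 12.73 ± 0.0545 and 12.72 ± 0.0336 bits (p = 0.9, exact permutation). In mTEClo at a common depth of 22.02 M fragments, WT had 28710 ± 456 detected genes and cHyper 28680 ± 467, a difference of -31 beside -1652 in mTEChi at that depth. The difference between the subsets, -1622, had an exact permutation p of 0.13 over 400 arrangements.

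Part of the genotype effect was shared between mTEChi and mTEClo, and part differed. Of the 572 genes called in mTEChi, 276 (48.3%) were also called in mTEClo, 272 of them with the same sign. Among these, Klhl26, Cdkn1a, Mdm4 and Mgmt had log2 changes of 1.81, -0.89, -0.54 and 2.64 in mTEClo. The test of the difference itself called 595 of 28932 genes (2.06%), and 102 genes were called both for it and in mTEChi. Within mTEClo 9.16% of genes were called. Krt14, Krt5 and Ccl21a, which rose in mTEChi, had log2 changes of 0.07, -0.18 and -0.18 in mTEClo (differences 1.1, 1.15 and 1.22; adjusted p = 0.00569, 0.0313 and 0.0379, edgeR). The differences of Krt5 (0.061 to 0.0703 without WT replicate 1 or 3 or cHyper replicate 2 or 3) and Ccl21a (0.0519 to 0.0945 without each library other than cHyper replicate 1) were lost when 1 library was left out. Eda2r had 1.44 ± 0.295 CPM in WT mTEClo and 25.3 ± 1.61 in cHyper mTEClo beside a log2 change of -0.06 in mTEChi (difference -4.17, edgeR adjusted p = 2.44e-06). Aire had 14.3 ± 2.6 and 44.5 ± 6.46 CPM in mTEClo, higher in cHyper, so that its effect was lower in mTEChi by 1.87 on the log2 scale (edgeR adjusted p = 0.000941).

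Some genes moved in opposite directions. Mstn, the muscle growth inhibitor myostatin, had 21, 26.3 and 26.5 CPM in WT and 12, 14.8 and 12.2 in cHyper mTEChi, and 0.164 ± 0.107 and 0.507 ± 0.154 in WT and cHyper mTEClo. Tnxb, an extracellular tenascin, had 54.1, 47.7 and 57.2 CPM in WT and 30.3, 28.3 and 23.5 in cHyper mTEChi, and 0.694 ± 0.15 and 1.78 ± 0.512 in mTEClo. The differences were -2.67 and -2.34 (adjusted p = 0.00558 and 0.000996, edgeR). Without WT replicate 2 or 3 or any cHyper library, Mstn was not called in mTEChi (0.0553 to 0.113).

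Several falls were deeper in mTEClo. Sncg went from 18.5 ± 5.42 to 0.541 ± 0.0348 CPM there, Krt15 from 28.3 ± 5.7 to 1.75 ± 0.666, and Spock2, a proteoglycan, from 166 ± 29.5 to 28.2 ± 1.06, against 153 ± 6.7 to 96.5 ± 7.85 in mTEChi. Matn1, a cartilage matrix protein, fell from 20.4 ± 1.73 to 8.86 ± 1.2 CPM in mTEChi and from 32.2 ± 8.9 to 3.75 ± 0.582 in mTEClo. The differences for Sncg, Krt15, Spock2 and Matn1 were 2.07, 2.81, 1.9 and 1.9 (edgeR adjusted p 6.79e-05 to 0.00226). Cpz, a carboxypeptidase, rose from 6.47, 6.84 and 6.74 CPM to 19.5, 20 and 23.4 in mTEChi, while in mTEClo it had 4 fragments over the 3 WT libraries and 41.9 ± 1.35 CPM in cHyper (adjusted p of the difference 1.39e-08, edgeR). Samd12 rose in both (17.1 ± 4.15 to 32.8 ± 4.74 and 3.14 ± 0.513 to 23.1 ± 4.84 CPM), less in mTEChi (difference -1.96, edgeR adjusted p = 0.00184); its mTEChi call was lost without WT replicate 2 or 3 or cHyper replicate 1 or 3 (0.0737 to 0.121).

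**Figure D4:**
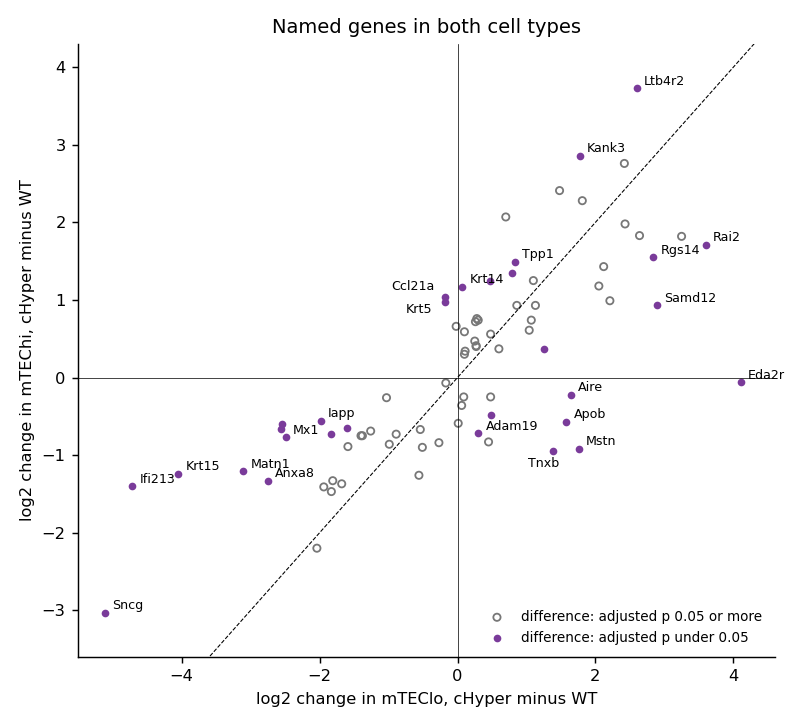
Log2 change of named genes in mTEChi (vertical) against mTEClo (horizontal), cHyper minus WT; the dashed line marks equal change and purple points differed between the subsets at an adjusted p under 0.05. Eda2r lies at the far right near 0 in mTEChi, and Krt14, Krt5 and Ccl21a lie above 0 in mTEChi near 0 in mTEClo; Fendrr and Cpz, with 0 and 4 WT mTEClo fragments, are left out.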

How the data were processed

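The authors deposited 1 table of 51810 genes with whole fragment counts and TPM per library; the counts were tested and the TPM was not. A signal column of fragments per kilobase that the authors deposited was not used. The submitters' processing notes list mm10, TopHat2 2.1.1, SAMtools 1.9, featureCounts and Subread 2.0.1. The strand setting of the count is not given in the sources used here. Genes with an overlapping gene on the other strand (such as Kank3 with Rps28, Adam19 and Krt5) are uncertain. This holds also for Fendrr, whose span shares 28229 bases with that of Gm20388 (96.5 CPM). The span of Bax shares 915 bases with that of Gm45808 on the same strand (38.1 CPM, log2 0.92), which no strand setting separates. Groups come from the labels. Counts were fitted with edgeR 4.0.16 (R 4.3.3; TMM, filterByExpr, quasi-likelihood test, Benjamini-Hochberg) over all 12 libraries, with 8 residual degrees of freedom; DESeq2 1.42.0 and limma 3.58.1 were alternatives. On simulated counts the fit recovered 37 of 50 genes raised 2-fold, all with a mean above 1 CPM. Detected genes are hypergeometric expectations. Same-numbered WT and cHyper libraries deviated together (correlations 0.167, 0.136 and 0.206), so the replicate number was also fitted as a block.

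Named genes were always Trp53, Cdkn1a, Mdm2, Aire and Fezf2; the 10 largest rises and falls among calls without overlap and with at least 1 CPM; 6 of each at 50 CPM or more; up to 4 members per list with the smallest p; and the 5 largest differences between cell types each way. Predicted genes, clones, pseudogenes and receptor segments were left out. Mdm4, Eda2r, Zmat3, Bbc3, Pmaip1, Fas, Tnfrsf10b, Pidd1, Aen, Bax, Gtse1, Perp, Polk, Ei24, Dram1, Triap1, Ercc5 and Krt5 with Ccl21a in the p53, basal and subset paragraphs were named after their values were seen. The 31 gene lists and the comparison were chosen with earlier results of these data known. Spt1 and Tf were not matched by symbol and Cpa1 was not tested.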

Additional observations from a re-analysis of the deposited data

Results flagged for a closer look

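Of 81 named genes, 31 differed in their genotype effect between mTEChi and mTEClo (interaction contrast in edgeR, adjusted p under 0.05). Of these 31, 23 were also called in mTEChi. Some genes, among them Cpz, Mstn and Matn1, were named for the size of this difference. Others, such as Eda2r, were named after their values were seen. The count of 31 is therefore partly set by how genes were picked. It cannot be compared with the 2.06% called among all 28932 tested genes. The difference was called whichever of the 6 mTEChi libraries was left out for 22 genes. It was lost in at least 1 such fit for Ltb4r2 (adjusted p up to 0.0728), Kank3 (0.0658), Rai2 (0.107), Ctc1 (0.112), Rgs12 (0.0515), Krt5 (0.0703), Ccl21a (0.0945), Rsad2 (0.0965) and Apob (0.0966), and for Apob also with the replicate block (0.0534). Values in parentheses are the log2 change in mTEChi minus that in mTEClo.

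Rises that were larger in mTEChi were those of Ltb4r2 (1.13), Kank3 (1.09), Tpp1 (0.67), Ctc1 (0.56), Rgs12 (0.78), Krt14 (1.1), Krt5 (1.15) and Ccl21a (1.22). Rises that were smaller in mTEChi were those of Rai2 (-1.89), Rgs14 (-1.29), Samd12 (-1.96) and Cpz (-8.36); the Cpz value rests on 4 WT mTEClo fragments and depends on how the fit treats counts near 0. Falls that were less deep in mTEChi were those of Sncg (2.07), Ifi213 (3.31), Anxa8 (1.42), Krt15 (2.81), Matn1 (1.9), Spock2 (1.9), Mx1 (1.72) and Dusp1 (0.94).

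Genes that fell in mTEChi and were higher in the mean of cHyper mTEClo were Adam19 (-1.02), Mstn (-2.67) and Tnxb (-2.34). Of genes not called in mTEChi, Irf7 (1.94), Rsad2 (1.12) and Iapp (1.43) were less low and Aire (-1.87), Eda2r (-4.17), Zmat3 (-0.89), Apob (-2.15) and Ret (-0.98) were lower in mTEChi than in mTEClo relative to WT. Iapp, the pancreatic islet amyloid peptide, had 45.2 ± 10.1 CPM in WT and 30.6 ± 5.11 in cHyper mTEChi, and Ret, a receptor tyrosine kinase, 28.8 ± 3.49 and 20.5 ± 2.11.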

How the results depend on the processing

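Counts of calls depended on the model more than directions did. With the replicate block 1250 genes were called (941 higher, 309 lower), with only the 6 mTEChi libraries in the fit 1126 (539 lower), with DESeq2's Wald test 1419 (707 higher, 712 lower) and with limma-voom 862 (352 lower). Of the 572 calls, 570, 540, 569 and 534 were also called there. Lower genes numbered 207 with at least 1 CPM in 3 libraries, 184 with library totals and 225 without a filter on low counts. Leaving out each replicate gave 296 to 333 calls (225 to 279 higher, 43 to 71 lower). With both replicate 3 libraries left out, an alternative chosen after seeing the data, 144 genes were called (110 higher, 34 lower). For the difference between cell types, 595 calls became 1415 with DESeq2, 1103 without a filter, 1186 with the replicate block, 207 without both replicate 3 libraries and 338 to 406 without single replicates.

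Genes detected at equal depth stayed lower in cHyper under each alternative run, with differences of -210 to -2046 genes, and so did the summed level of genes with 0 mTEClo fragments, at -29.3 to -36.7% with 1 choice changed at a time and -40.2% with library totals and without cHyper mTEChi replicate 1 together. The share of the 100 most abundant genes, different by -0.446 points in cHyper, was 0.27 points higher without WT mTEChi replicate 3, and -0.826 to 0.27 over single replicates; the cause was not tested.

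No named gene called in mTEChi changed direction under any alternative. Of 60 named genes called, 35 kept the call whichever single replicate was left out. Among the genes given values above, the replicate block changed the calls of Zmat3, Irf7, Rsad2, Fos, Ccl22, Hnf4a, Bbc3, Aen, Mcm3 (0.0213), Mcm7 (0.0498), Mta2 (0.0266) and Cxcl9 (0.043). Without both replicate 3 libraries, the calls of Sgce (0.0755), Hmgcll1 (0.0508), Adam11 (0.0716), Adam19 (0.0634), Krt15 (0.0753), Spock2 (0.0913), Tnxb (0.147) and Perp (0.0949), robust to any 1 library, were lost. At these depths genes with 2-fold changes were recovered in 37 of 50 (rises) and 41 of 50 (falls) simulated cases, so smaller changes can be missed.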

Other observations

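Gene families differed in how many members were detected at equal depth. Keratin-associated proteins of hair, which are not made by most epithelia, counted 38.4, 34.5 and 38.9 of 57 in WT mTEChi and 32.8, 32.3 and 34 in cHyper (-11.28%, no overlap, exact permutation p = 0.1). All 49 keratin genes were detected in every library. Beta-defensins stood at 35.71 ± 0.918 of 42 in WT and 34.09 ± 1.44 in cHyper, with overlap. Solute carriers went the other way by a small margin, 386.5 ± 0.477 of 388 in WT and 387.5 ± 0.393 in cHyper. Among gene models, unprocessed pseudogenes (-19.76%) and lincRNAs (-10.77%) overlapped between the groups, while processed pseudogenes (-8.29%) and antisense genes (-4.16%) did not.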
